A study of Mus musculus with 15 samples.

Results

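Chromatin modifiers and remodelers are the enzymes and binding proteins that add, remove or read marks on histones and DNA, or that move nucleosomes. The genes described here are the 121 of 9666 listed genes whose symbols begin with the family names Hdac, Kdm, Kmt2, Kat, Setd, Smarc, Chd, Arid, Brd, Dnmt, Tet, Ezh, Cbx, Ing, Sin3 or Phf, or are Suz12 or Eed. They were chosen by symbol and not by their values. Their messenger RNA levels were compared in ventricular cardiomyocytes, the contracting muscle cells of the heart's lower chambers, from wild-type C57BL/6 mice at 3 ages. These were postnatal day 1 (P1, 4 libraries), postnatal day 3 (P3, 4 libraries) and adult, 8 to 12 weeks (7 libraries), with no other allele, agent or injury named in any group. The study looked for mediators of cardiac muscle regeneration, and mouse hearts regenerate within the first days after birth and lose that capacity soon after. Whether the libraries of a group came from different animals is not stated in the labels, and the p-values therefore cover the spread among these libraries, which may be technical.

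DNA in the nucleus is wrapped around histones, and the tightness of that packing sets which genes can be read. Acetyltransferases loosen it and deacetylases reverse this, methyltransferases and demethylases write and erase marks that either favour or silence transcription, and ATP-driven remodelers slide or evict nucleosomes. In the heart, Polycomb repression, the cardiac form of the SWI/SNF remodeler and the class IIa deacetylases are known regulators of the passage from fetal to adult muscle.

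The libraries differed in ways that touch every member. The median of log2(RPKM + 0.5) over the genes tested averaged 3.24 in P1, 3.34 in P3 and 1.79 in adult libraries, a shift of 1.45 for P1 and 1.55 for P3 against adult. RPKM scales reads to gene length and to the library's total reads. Changes are therefore given as log2 differences relative to the library's median gene, written as change ± SE, with the deposited scale beside them where it alters the reading. Estimated depth was 10400000 to 11200000 reads in P1, 9400000 to 13500000 reads in P3 and 6200000 to 17000000 reads in adult libraries. The labelled cell type was checked against 10 cardiomyocyte markers, all of which were listed. Their summed level was 5146 to 12265 RPKM in P1, 666 to 5268 RPKM in P3 and 15865 to 29367 RPKM in adult libraries, and all 10 were called lower relative to the median gene in P1 and in P3 than in adult. The 8 endothelial markers listed summed to 198 to 469 RPKM in P1, 670.1 to 1607 RPKM in P3 and 2.40 to 199 RPKM in adult libraries. The 5 fibroblast markers listed summed to 164 to 1408 RPKM in P1, 379 to 809.9 RPKM in P3 and 1.10 to 78.3 RPKM in adult libraries. Within their groups 3 libraries stood apart: P1 replicate 1 had the highest fibroblast sum, P3 replicate 1 the highest cardiomyocyte sum, and adult replicate 4 the lowest depth and the highest endothelial sum. The P3 libraries thus carried the least cardiomyocyte message of the 3 groups and the most endothelial message. The part of cell make-up in the results below was not tested, and in such bulk libraries fewer cells of a type and less RNA per cell cannot be told apart.

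Most members were low in adult cardiomyocytes. The median of the members' mean levels was 7.27 RPKM in P1, 8.48 RPKM in P3 and 1.61 RPKM in adult libraries. In P1 libraries 39 members averaged at least 10 RPKM, in P3 libraries 53 did and in adult libraries 7 did. As deposited, 96 of the 121 members were higher in every P1 library than in every adult one, and 101 in every P3 library. Relative to the median gene these counts were 27 and 50. In the other direction, 23 members were lower in every P1 library than in every adult one on that scale, and 19 in every P3 library. As deposited, 2 were lower at each age. A separation in deposited RPKM, given for single members below, was therefore common among members. The share of such separations over all genes was not counted on either scale. The highest members were Brd2, a bromodomain reader of acetylated histones, and the deacetylase Hdac2 in both neonatal groups, and the methyltransferase Setd3 and the SWI/SNF subunit Brd7 in adult libraries. Members with fewer reads are less precise: reads could be recovered for 110 members, and 43 of these had under 30 reads in at least 1 library.

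Once set against the median gene, more members rose than fell in neonatal cells. A member counts as called when limma's Benjamini-Hochberg adjusted p over all genes tested was under 0.05 and the log2 change was at least 1 in size; 119 members passed the filter on low values. In P1 against adult 20 members were called higher (16.8%), where 13.7% of all genes tested were, and 11 were called lower (9.24%), where 21.6% of all genes were. In P3 against adult 34 members were called higher (28.6%), where 19.1% of all genes were, and 13 were called lower (10.9%), where 27.1% of all genes were. The members' median change was 0.22 in P1 and 0.50 in P3, against -0.09 and -0.07 over all genes. On the deposited scale, log2(RPKM + 0.5) without the library median taken off, 92 members were called higher in P1 and 96 in P3, where 62.7% of all genes were higher at both ages. On that scale only Hdac11 was called lower at either age, where 4.32% of all genes were lower in P1 and 9.16% in P3. Other scalings moved members and all 9389 genes tested together. Quantile normalization gave 26 members higher and 6 lower in P1 (all genes 1703 and 1700) and 41 and 8 in P3 (2408 and 2179). Median-of-ratios scaling gave 25 and 7 in P1 (all genes 1552 and 1853) and 44 and 10 in P3 (2133 and 2335). Equal RPKM sums moved the split further, to 66 and 1 in P1 (all genes 3886 and 863) and 82 and 2 in P3 (4698 and 1237). The calls varied in how firmly they held. Of the P1 calls 12 rises and 4 falls, and of the P3 calls 20 rises and 6 falls, held with each library left out in turn, against adult replicates 1 to 4 or 5 to 7 alone, and under both quantile normalization and median-of-ratios scaling.

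**Figure D1:**
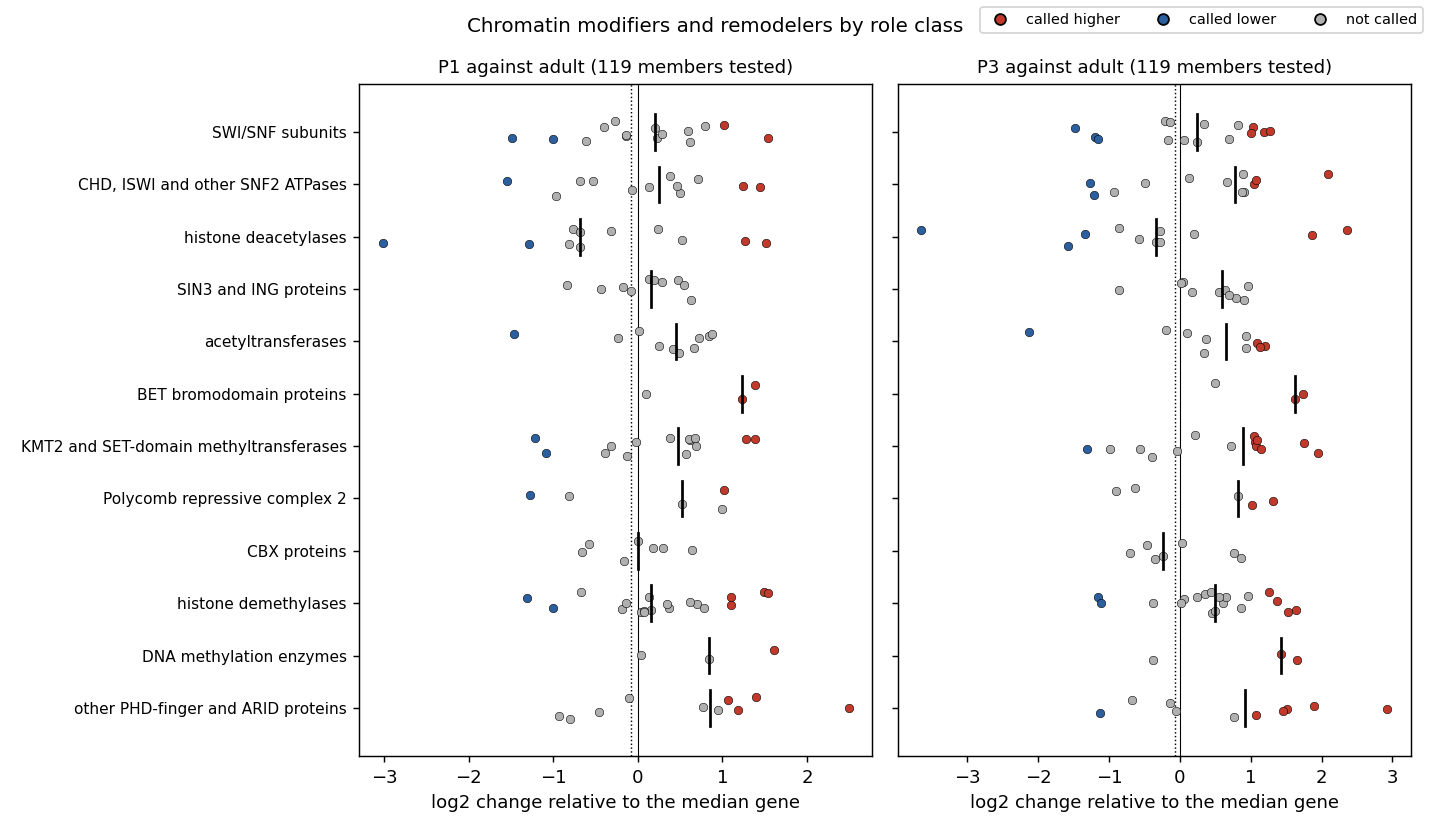
Log2 change of each of the 119 members tested relative to the median gene, for P1 against adult (left) and P3 against adult (right), by role class. Each point is a gene, short bars are class medians and the dotted line is the median of all genes tested; Hdac11 is the lowest point and Arid5b the highest in both panels, and on the deposited scale, which is not drawn, Hdac11 is the only member called lower.

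In the Polycomb repressive complex that methylates lysine 27 of histone H3, one catalytic subunit rose in neonatal cells and the other fell in P1 relative to the median gene. Ezh2 is the form of dividing cells and Ezh1 the form of resting ones. Ezh2 had 7.99, 4.87, 6.52 and 4.795 RPKM in P1 libraries, 6.87, 8.91, 8.82 and 7.24 RPKM in P3 libraries and 0.4397 to 0.896 RPKM (median 0.649) in adult libraries. Every neonatal library was above every adult one. Ezh2 rose relative to the median gene, by 1.01 ± 0.16 in P1 (limma adjusted p = 4.22e-05) and 1.31 ± 0.16 in P3 (limma adjusted p = 1.55e-06). The P1 call lay close to the threshold and ended without P1 replicate 1 (0.87), P1 replicate 3 (0.98), adult replicate 4 (0.95) or adult replicate 6 (0.99). Ezh2 rested on 137 to 224 recovered reads in P1, 198 to 283 in P3 and 10 to 41 in adult libraries.

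Ezh1 had 2.22, 4.26, 4.596 and 3.46 RPKM in P1 libraries, 4.81, 4.696, 4.07 and 7.16 RPKM in P3 libraries and 1.48 to 5.82 RPKM (median 3.07) in adult libraries. On the deposited scale the groups overlapped. Relative to the median gene Ezh1 fell in P1, with a change of -1.28 ± 0.22 (limma adjusted p = 8.24e-05), and was at -0.90 ± 0.22 in P3, under the size threshold, while the deposited-scale changes were 0.17 and 0.64. The ratio of Ezh2 to Ezh1 within a library, which a single factor per library does not alter, was 1.14 to 3.61 in P1, 1.01 to 2.17 in P3 and 0.145 to 0.297 in adult libraries. Ezh2 was thus the more abundant form per length in each of the 8 neonatal libraries and Ezh1 in each of the 7 adult ones. The log2 ratio, with 0.5 RPKM added to each gene, differed from adult by 2.29 ± 0.37 in P1 and 2.21 ± 0.28 in P3 (SE; exact permutation p = 0.00303 for each, the smallest that 7 against 4 libraries allow). With the added 0.5 RPKM this tested ratio does depend on the scale of the library. Between P3 and P1 the ratio differed by -0.08 ± 0.40 (SE; exact permutation p = 0.886). Within-library ratios were formed for the 8 pairs of paralogs among the members, giving 24 tests, and were added after the values had been seen.

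The other subunits were Eed, which binds the methylated histone, Suz12, the scaffold, and Phf1, an accessory protein. Suz12 was at 0.52 ± 0.20 in P1 and 0.82 ± 0.20 in P3 and Phf1 at -0.81 ± 0.13 and -0.63 ± 0.13, and neither was called. Eed had 23.1, 21.0, 18.7 and 17.1 RPKM in P1 libraries, 27.1, 23.2, 22.3 and 15.3 RPKM in P3 libraries and 2.86 to 3.87 RPKM (median 3.198) in adult libraries. All neonatal libraries lay above all adult ones. Its change relative to the median gene was 0.99 ± 0.18 in P1, just under the threshold, and 1.01 ± 0.18 in P3 (limma adjusted p = 7.54e-05). The P3 call ended without any 1 of 7 libraries, adult replicates 1, 5, 6 and 7 and P3 replicates 1, 2 and 3, with a lowest value of 0.93 without P3 replicate 1. It also ended against adult replicates 1 to 4 alone (0.84).

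Promoters are shown for the pair whose balance differed and for Dnmt1, the maintenance DNA methyltransferase, because Ezh2 and Dnmt1 are textbook targets of E2F, the factor that switches on genes for DNA replication. The windows run from 250 bases before to 50 after an annotated start in RefSeq (GRCm38.p6), 5′ to 3′ on the gene's strand, and capitals mark letters of the E2F motif. The motif was searched as TTTCCCGC, TTTGGCGC, TTTCGCGC and TTTGCCGC on both strands, and these forms can overlap.
Ezh2 (chr6:47594981-47595280, minus strand): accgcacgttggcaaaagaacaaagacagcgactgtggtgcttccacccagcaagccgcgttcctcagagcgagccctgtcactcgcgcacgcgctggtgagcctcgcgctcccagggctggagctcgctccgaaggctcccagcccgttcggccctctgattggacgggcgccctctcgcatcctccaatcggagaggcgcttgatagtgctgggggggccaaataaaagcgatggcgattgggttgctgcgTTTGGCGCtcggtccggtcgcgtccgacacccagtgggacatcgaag
Ezh1 (chr11:101226414-101226713, minus strand): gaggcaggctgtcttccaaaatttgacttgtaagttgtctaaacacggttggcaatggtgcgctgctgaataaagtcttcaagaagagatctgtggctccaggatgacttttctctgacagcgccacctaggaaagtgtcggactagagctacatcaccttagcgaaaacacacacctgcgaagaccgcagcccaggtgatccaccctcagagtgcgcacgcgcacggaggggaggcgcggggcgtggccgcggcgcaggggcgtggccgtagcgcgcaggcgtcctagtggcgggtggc
Dnmt1 (chr9:20952574-20952873, minus strand; 1 of 3 annotated starts): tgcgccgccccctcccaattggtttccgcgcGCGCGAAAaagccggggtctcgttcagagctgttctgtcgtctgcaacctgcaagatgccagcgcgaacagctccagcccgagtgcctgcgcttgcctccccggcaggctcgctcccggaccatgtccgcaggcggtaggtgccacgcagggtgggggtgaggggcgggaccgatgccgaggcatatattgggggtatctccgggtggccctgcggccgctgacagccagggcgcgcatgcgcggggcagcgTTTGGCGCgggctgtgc
The Ezh2 window held 1 match, beginning at base 4 after the start. The Dnmt1 window held 2, one beginning 219 bases before the start on the opposite strand and one at base 34. The Ezh1 window held none, nor did the other annotated Dnmt1 windows. Promoters were found for 94 of the 121 members, and 9 of these (9.57%) had a match in at least 1 window, where 2.60% of all genes with a promoter did. Of the 20 members called higher in P1 15 had a promoter, and 3 of these, Ezh2, Dnmt1 and Arid1a, had a match. Of the 8 members called lower at both ages, all with a promoter, 1, Brd7, had a match. Other motifs were also more frequent among members: the GC box GGGCGG was in 78.7% of members with a promoter, against 38.2% of all genes, and the cyclic AMP element TGACGTCA in 4.26%, against 2.03%. A match describes the letters in the window and not binding.

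DNA methylation is copied at replication by Dnmt1, laid down anew by Dnmt3a and removed through oxidation by the Tet enzymes. Dnmt1 had 10.2, 7.74, 10.7 and 9.41 RPKM in P1 libraries, 8.21, 11.2, 10.1 and 12.9 RPKM in P3 libraries and 0.357 to 1.08 RPKM (median 0.708) in adult libraries, with no overlap between neonatal and adult. It rose by 1.60 ± 0.15 in P1 (limma adjusted p = 1.39e-07) and 1.65 ± 0.15 in P3 (limma adjusted p = 4.48e-08) relative to the median gene. The 16 DNA replication genes listed moved beside it, with 8 called higher and 0 lower in P1, 9 higher and 0 lower in P3, and a summed level of 151 to 383 RPKM in P1, 263 to 326 RPKM in P3 and 25.0 to 53.2 RPKM in adult libraries, and their part in the result was not tested. Dnmt3a had 5.52, 7.56, 9.93 and 6.96 RPKM in P1 libraries, 5.901, 5.77, 5.55 and 5.903 RPKM in P3 libraries and 1.03 to 4.04 RPKM (median 1.83) in adult libraries. It was not called, with changes of 0.04 ± 0.21 in P1 and -0.37 ± 0.21 in P3. The ratio of Dnmt3a to Dnmt1 was 0.539 to 0.977 in P1, 0.458 to 0.719 in P3 and 2.59 to 5.09 in adult libraries (exact permutation p = 0.00303 for each age against adult). Tet3, the only Tet member listed, had 5.89, 4.44, 5.002 and 5.61 RPKM in P1 libraries, 6.05, 10.1, 9.001 and 9.89 RPKM in P3 libraries and 0.223 to 1.23 RPKM (median 0.633) in adult libraries. Its change was 0.84 ± 0.19 in P1, short of the threshold, and 1.42 ± 0.19 in P3 (limma adjusted p = 3.01e-06).

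Among histone deacetylases 2 of 11 rose and 2 fell in P1 against adult, and 2 rose and 3 fell in P3. Over all genes 13.7% rose and 21.6% fell in P1, and 19.1% rose and 27.1% fell in P3. Hdac11, the sole class IV enzyme, fell furthest of all members. Hdac11 had 0.458, 1.18, 0.929 and 0.677 RPKM in P1 libraries, 0.767, 0.339, 0.233 and 0.274 RPKM in P3 libraries and 1.99 to 5.396 RPKM (median 2.94) in adult libraries. Every neonatal library was below every adult one on the deposited scale too. Its change was -3.02 ± 0.20 in P1 (limma adjusted p = 2.07e-09) and -3.65 ± 0.20 in P3 (limma adjusted p = 1.14e-10), and on the deposited scale -1.56 and -2.11. It rested on 12 to 31 recovered reads in P1, 7 to 26 in P3 and 46 to 226 in adult libraries, and 17.9% of its exon bases in GENCODE (chromosome 6, 91156665 to 91174692, plus strand) overlap other annotated genes.

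The class I enzymes work in nuclear corepressor complexes. Hdac1 had 35.4, 20.2, 19.3 and 19.8 RPKM in P1 libraries, 25.1, 33.02, 32.7 and 36.2 RPKM in P3 libraries and 1.65 to 3.72 RPKM (median 2.51) in adult libraries. P1 replicate 1 stood above the other P1 libraries, and all neonatal libraries were above all adult ones. Hdac1 rose by 1.51 ± 0.19 in P1 (limma adjusted p = 2.40e-06) and 1.87 ± 0.19 in P3 (limma adjusted p = 1.06e-07). Its close relative Hdac2 had 52.2, 42.2, 50.96 and 41.1 RPKM in P1 libraries, 52.7, 47.8, 47.9 and 44.5 RPKM in P3 libraries and 11.97 to 19.2 RPKM (median 13.7) in adult libraries. Hdac2 was the most abundant deacetylase per length in all 3 groups, and its changes of 0.24 ± 0.14 in P1 and 0.20 ± 0.14 in P3 were not called. Hdac3, the catalytic subunit of the NCoR complexes, was at -0.69 ± 0.13 in P1 and -0.87 ± 0.13 in P3 relative to the median gene, and Hdac8 at -0.68 ± 0.14 in P1 and -0.27 ± 0.14 in P3. Neither reached the size threshold, and on the deposited scale both were positive, at 0.76 and 0.68 for Hdac3 and 0.77 and 1.27 for Hdac8.

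Class IIa deacetylases shuttle between nucleus and cytoplasm and bind MEF2 in muscle. Hdac5 had 7.85, 10.99, 11.5 and 7.61 RPKM in P1 libraries, 9.56, 7.57, 5.26 and 5.38 RPKM in P3 libraries and 3.69 to 7.88 RPKM (median 7.11) in adult libraries. Relative to the median gene it was at -0.81 ± 0.17 in P1, not called, and fell, with a change of -1.34 ± 0.17 in P3 (limma adjusted p = 1.33e-06), while the deposited-scale changes were 0.64 and 0.20. Hdac9 had 0.718, 0.908, 0.7299 and 1.23 RPKM in P1 libraries, 0.426, 0.185, 1.41 and 1.27 RPKM in P3 libraries and 0.382 to 1.14 RPKM (median 0.752) in adult libraries. It fell relative to the median gene, with changes of -1.29 ± 0.26 in P1 (limma adjusted p = 2.99e-04) and -1.57 ± 0.26 in P3 (limma adjusted p = 2.96e-05), against 0.16 and -0.03 on the deposited scale. Both Hdac9 calls ended under quantile normalization (-0.92 and -0.94) and under median-of-ratios scaling (-0.79 and -0.95). Hdac4 was not called, at -0.77 ± 0.21 in P1 and -0.29 ± 0.21 in P3. Hdac7, the class IIa enzyme known from endothelium, rose by 1.26 ± 0.32 in P1 (limma adjusted p = 0.00228) and 2.36 ± 0.32 in P3 (limma adjusted p = 3.85e-06), and its values are given with the comparison of P3 and P1. The P1 call of Hdac7 ended against adult replicates 1 to 4 alone (0.96), and relative to the median gene P1 overlapped adult. The tubulin deacetylase Hdac6 and Hdac10 were not called, at 0.52 ± 0.21 and -0.32 ± 0.16 in P1 and -0.33 ± 0.21 and -0.58 ± 0.16 in P3.

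**Figure D2:**
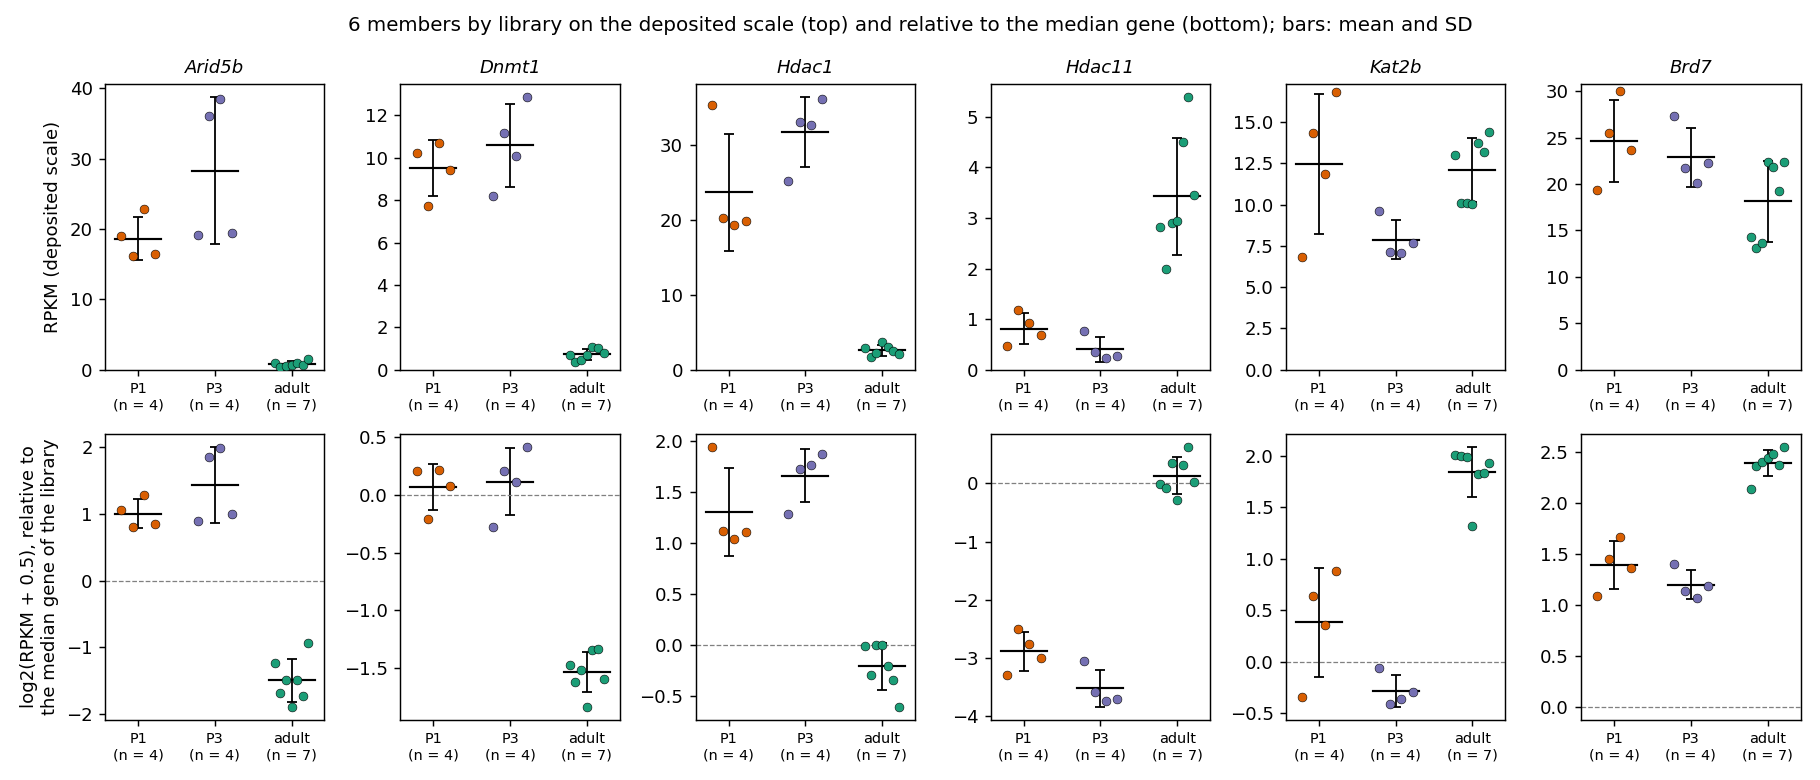
Levels of 6 members in each library as deposited RPKM (top) and as log2(RPKM + 0.5) relative to the library's median gene (bottom), for P1, P3 and adult; points are libraries, bars the mean and SD. Arid5b, Dnmt1 and Hdac1 are higher in every neonatal library than in every adult one on both scales and Hdac11 is lower on both, whereas Kat2b and Brd7 separate from adult only in the lower row, apart from Kat2b in P3.

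SIN3 scaffolds hold class I deacetylases on chromatin. The class of SIN3 and ING proteins gave 0 limma calls among 10 members at either age, relative to the median gene. On that scale 13.7% of all genes were higher and 21.6% lower in P1, and 19.1% and 27.1% in P3. An unadjusted p under 0.05 was reached by 5 of the 10 in P1 and 7 in P3, where 81 and 90 of all 119 members tested reached it. The share of all genes that did was not counted. As deposited, 9 of the 10 were called higher at each age, where 62.7% of all genes were. Their median change was 0.16 in P1 and 0.59 in P3, and single changes ran between -0.84 (Ing4) and 0.62 (Ing3) in P1 and between -0.86 (Ing4) and 0.97 (Arid4b) in P3. Sin3a was at 0.19 ± 0.16 in P1 and 0.80 ± 0.16 in P3, and Sin3b at 0.55 ± 0.17 and 0.70 ± 0.17. The ratio of Sin3a to Sin3b overlapped between groups, at 0.389 to 0.564 in P1, 0.496 to 0.748 in P3 and 0.258 to 0.830 in adult libraries (exact permutation p = 0.227 for P1 and 0.718 for P3 against adult).

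Acetyltransferases held the pair of paralogs whose ratio in P3 differed most from adult. Kat2b (PCAF) and Kat2a (GCN5) are alternative catalytic subunits of the same coactivator complexes. Kat2b had 6.85, 14.3, 11.9 and 16.8 RPKM in P1 libraries, 9.59, 7.11, 7.09 and 7.67 RPKM in P3 libraries and 10.02 to 14.4 RPKM (median 13.03) in adult libraries. In P3 every library was below every adult one, and P1 overlapped adult on the deposited scale. Kat2b fell relative to the median gene, with changes of -1.46 ± 0.20 in P1 (limma adjusted p = 7.12e-06) and -2.13 ± 0.20 in P3 (limma adjusted p = 5.17e-08), and on the deposited scale the changes were -0.01 and -0.58. Kat2a had 8.68, 10.3, 11.7 and 8.92 RPKM in P1 libraries, 11.4, 10.9, 9.43 and 13.4 RPKM in P3 libraries and 0.562 to 3.08 RPKM (median 1.95) in adult libraries. All its neonatal values were above all adult ones, though its changes of 0.84 ± 0.18 in P1 and 0.93 ± 0.18 in P3 were short of the size threshold. The ratio of Kat2a to Kat2b was 0.530 to 1.27 in P1, 1.19 to 1.75 in P3 and 0.0557 to 0.308 in adult libraries. On the log2 scale it differed from adult by 2.30 ± 0.34 in P1 and 3.06 ± 0.24 in P3 (SE; exact permutation p = 0.00303 for each). Of the 10 members in this class 0 rose and 1 fell in P1, and 3 rose and 1 fell in P3. The shares of all genes were 13.7% higher and 21.6% lower in P1, and 19.1% higher and 27.1% lower in P3. The P3 rises were Kat6a (1.204 ± 0.22) and Kat7 (1.12 ± 0.14), enzymes of the MYST family, and Brd8 (1.08 ± 0.17), a subunit of the TIP60 complex (limma adjusted p = 1.08e-04, 1.68e-06 and 2.55e-05). In P1 they were at 0.66 ± 0.22, 0.87 ± 0.14 and 0.73 ± 0.17. Against adult replicates 5 to 7 alone the calls of Kat7 (0.94) and Brd8 (0.84) ended, and that of Brd8 ended without P3 replicate 3 (0.98). The MYST enzymes Kat5 (0.25 ± 0.16 in P1 and 0.33 ± 0.16 in P3), Kat6b (-0.24 ± 0.20 and -0.20 ± 0.20) and Kat8 (0.02 ± 0.13 and 0.11 ± 0.13) were not called.

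BET proteins read acetylated histones and recruit the elongation machinery. Brd2 had 64.7, 35.4, 54.1 and 35.5 RPKM in P1 libraries, 61.2, 72.7, 67.8 and 49.5 RPKM in P3 libraries and 2.84 to 16.3 RPKM (median 6.02) in adult libraries. It rose by 1.39 ± 0.28 in P1 (limma adjusted p = 3.39e-04) and 1.73 ± 0.28 in P3 (limma adjusted p = 2.70e-05), although in GENCODE 9.78% of its exon bases overlap other genes. The P1 call of Brd2 ended against adult replicates 5 to 7 alone (0.89). All neonatal libraries were above all adult ones in Brd2 as deposited, whereas relative to the median gene P1 overlapped adult. Brd3 was not called, at 0.10 ± 0.13 in P1 and 0.50 ± 0.13 in P3.

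SWI/SNF subunits are assembled around either of the ATPases Smarca4 (BRG1) and Smarca2 (BRM). Of 15 subunits 2 rose and 2 fell in P1 against adult, and 4 rose and 3 fell in P3. Over all genes the shares were 13.7% and 21.6% in P1, and 19.1% and 27.1% in P3. Smarca2 had 3.98, 3.14, 3.799 and 4.03 RPKM in P1 libraries, 3.38, 3.04, 6.14 and 10.7 RPKM in P3 libraries and 1.99 to 7.05 RPKM (median 3.66) in adult libraries. Relative to the median gene it fell, with changes of -1.49 ± 0.27 in P1 (limma adjusted p = 1.41e-04) and -1.16 ± 0.27 in P3 (limma adjusted p = 9.83e-04), against -0.04 and 0.39 on the deposited scale. The P3 call ended without P3 replicate 1 (-0.96) or P3 replicate 2 (-0.93), and against adult replicates 1 to 4 alone (-0.95). Smarca4 had 14.01, 18.8, 22.1 and 17.5 RPKM in P1 libraries, 19.2, 21.8, 20.3 and 20.2 RPKM in P3 libraries and 2.18 to 6.001 RPKM (median 4.12) in adult libraries. It was at 0.61 ± 0.16 in P1 and 0.70 ± 0.16 in P3 relative to the median gene, without reaching the size threshold. Per length the ATPases were about level in adult cells and Smarca4 led in neonatal ones: the ratio of Smarca4 to Smarca2 was 3.52 to 6.00 in P1, 1.89 to 7.17 in P3 and 0.694 to 1.38 in adult libraries (exact permutation p = 0.00303 for each age against adult).

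The core scaffolds also differed in their ratio. The ratio of Smarcc1 (BAF155) to Smarcc2 (BAF170) was 0.873 to 1.28 in P1, 0.695 to 1.56 in P3 and 0.348 to 0.554 in adult libraries (exact permutation p = 0.00303 for each age against adult). Smarcc1 itself was at 0.79 ± 0.15 in P1 and rose by 1.004 ± 0.15 in P3 (limma adjusted p = 9.25e-06), a call that ended without P3 replicate 2 (0.89), P3 replicate 3 (0.97), adult replicate 2 (0.96) or adult replicate 4 (0.98). The Smarcc1 call also ended against adult replicates 5 to 7 alone (0.97). Smarcc2 was not called, at -0.40 ± 0.18 and -0.20 ± 0.18. Smarcb1 (SNF5), a core subunit, had 23.7, 25.8, 20.97 and 24.3 RPKM in P1 libraries, 23.5, 18.7, 17.3 and 25.2 RPKM in P3 libraries and 1.66 to 5.96 RPKM (median 2.41) in adult libraries. All neonatal values lay above all adult ones, and Smarcb1 rose by 1.54 ± 0.19 in P1 (limma adjusted p = 3.05e-06) and 1.27 ± 0.19 in P3 (limma adjusted p = 1.43e-05).

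Alternative DNA-binding and bromodomain subunits set apart the BAF and PBAF forms of the complex. Arid1a, of BAF, had 8.63, 10.9, 13.4 and 10.8 RPKM in P1 libraries, 10.5, 13.4, 15.5 and 13.3 RPKM in P3 libraries and 0.728 to 2.401 RPKM (median 1.59) in adult libraries. It rose by 1.02 ± 0.17 in P1 (limma adjusted p = 7.82e-05) and 1.19 ± 0.17 in P3 (limma adjusted p = 1.01e-05). The P1 call ended without adult replicate 2 (0.96), 3 (0.99) or 4 (0.95) or P1 replicate 3 (0.92), and both calls ended against adult replicates 5 to 7 alone (0.75 and 0.92). Arid1b, its alternative, was not called, at -0.14 ± 0.21 in P1 and 0.06 ± 0.21 in P3. Arid2, of PBAF, was at 0.59 ± 0.20 in P1 and rose by 1.03 ± 0.20 in P3 (limma adjusted p = 2.05e-04), a call that ended without adult replicate 4 (0.90) or P3 replicate 3 (0.93). The Arid2 call also ended against adult replicates 5 to 7 alone (0.79). Brd7, also of PBAF, had 19.3, 25.5, 29.97 and 23.7 RPKM in P1 libraries, 27.4, 21.7, 20.1 and 22.3 RPKM in P3 libraries and 13.1 to 22.4 RPKM (median 19.3) in adult libraries. It fell relative to the median gene, with changes of -1.002 ± 0.13 in P1 (limma adjusted p = 6.30e-06) and -1.19 ± 0.13 in P3 (limma adjusted p = 4.76e-07), but its deposited-scale changes were 0.45 and 0.35. The P1 call of Brd7 ended without any 1 of adult replicates 4, 5 and 7 and P1 replicates 1 and 4, at -0.90 without P1 replicate 1, and under quantile normalization both were short of the threshold (-0.75 and -0.90). Against adult replicates 1 to 4 alone the P1 call of Brd7 ended too (-0.95). Smarcd1 and Smarcd2 were not called against adult, at -0.61 ± 0.16 and -0.14 ± 0.29 in P1 and -0.14 ± 0.16 and 0.83 ± 0.29 in P3.

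**Figure D3:**
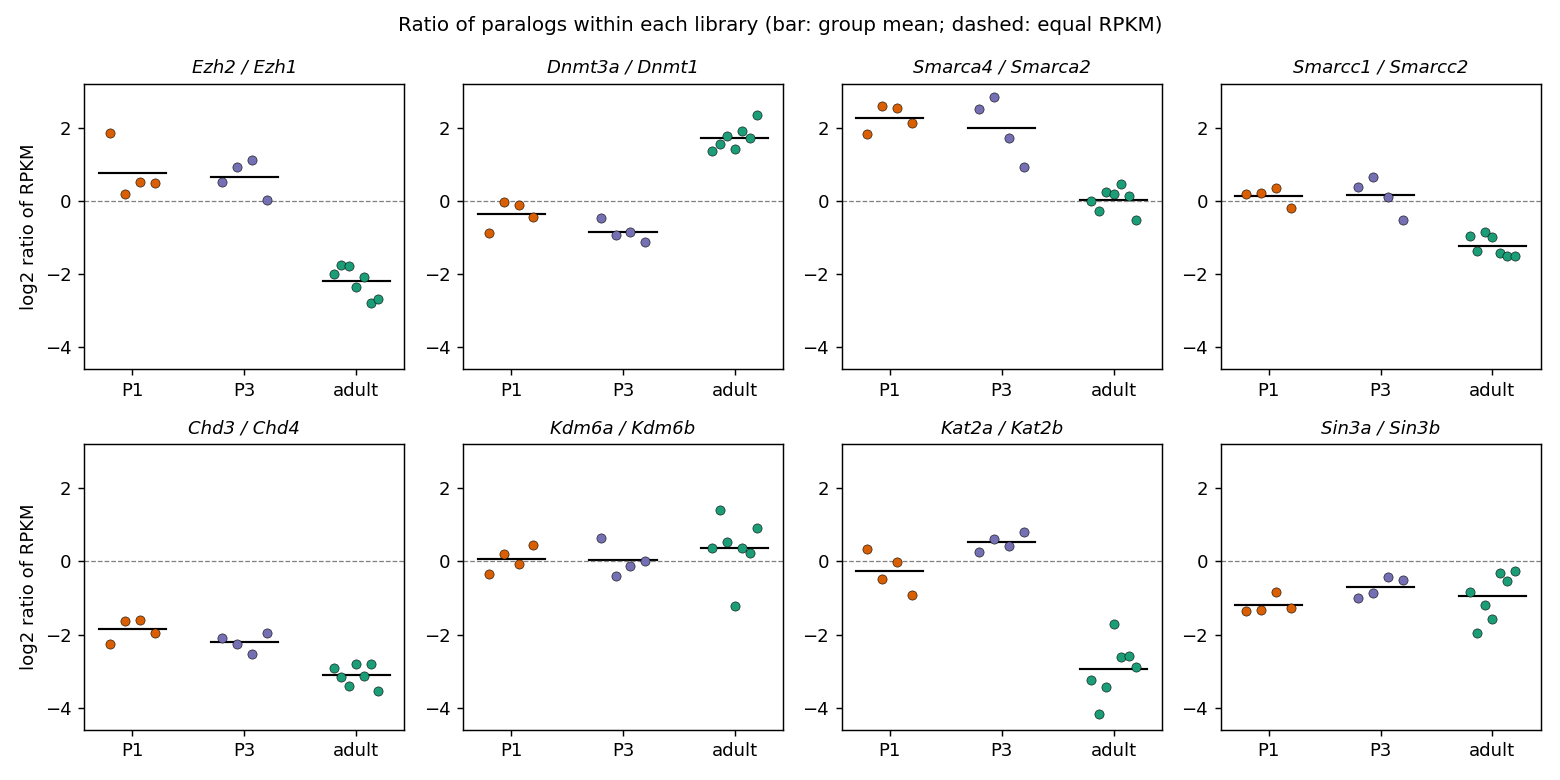
Log2 of the RPKM ratio of the 8 pairs of paralogs in each library, for P1, P3 and adult; points are libraries, bars group means and the dashed line equal RPKM. Ezh2 over Ezh1, Smarca4 over Smarca2, Smarcc1 over Smarcc2, Chd3 over Chd4 and Kat2a over Kat2b are higher in all neonatal libraries than in all adult ones. Dnmt3a over Dnmt1 is lower in all of them, while Kdm6a over Kdm6b and Sin3a over Sin3b overlap.

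Chromodomain remodelers of the CHD family slide nucleosomes at genes being transcribed or, in the NuRD complex, at genes being silenced. Of 12 CHD, ISWI and other SNF2 ATPases 2 rose and 1 fell in P1 and 3 rose and 2 fell in P3. Among all genes 13.7% rose and 21.6% fell in P1, and 19.1% rose and 27.1% fell in P3. Chd1, which binds the active mark on histone H3 lysine 4, had 12.5, 8.398, 9.17 and 6.898 RPKM in P1 libraries, 13.5, 16.4, 20.7 and 12.3 RPKM in P3 libraries and 0.3304 to 1.57 RPKM (median 0.797) in adult libraries. The neonatal and adult ranges did not overlap. Chd1 rose by 1.45 ± 0.20 in P1 (limma adjusted p = 8.23e-06) and 2.09 ± 0.20 in P3 (limma adjusted p = 6.57e-08). Of the NuRD ATPases, Chd4 was the more abundant per length throughout, with 31.5, 29.4, 35.8 and 28.8 RPKM in P1 libraries, 31.7, 38.9, 42.04 and 37.4 RPKM in P3 libraries and 4.54 to 11.6 RPKM (median 7.76) in adult libraries, and was not called (0.50 ± 0.16 in P1 and 0.66 ± 0.16 in P3). Chd3 rose by 1.24 ± 0.16 in P1 (limma adjusted p = 3.00e-06) and 1.05 ± 0.16 in P3 (limma adjusted p = 1.10e-05). The P3 call of Chd3 ended without P3 replicate 4 (0.96) and against adult replicates 5 to 7 alone (0.96). The ratio of Chd3 to Chd4 was 0.211 to 0.331 in P1, 0.172 to 0.256 in P3 and 0.0846 to 0.144 in adult libraries. These plain ratios did not overlap between neonatal and adult libraries. The test used the log2 ratio with 0.5 RPKM added to each gene, on which P3 overlapped adult. Its exact permutation p was 0.00303 for P1 and 0.0394 for P3 against adult.

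Chd6 varied widely among the adults. It had 2.38, 3.04, 3.49 and 3.53 RPKM in P1 libraries, 3.35, 3.56, 5.39 and 5.51 RPKM in P3 libraries and 1.53 to 11.7 RPKM (median 2.62) in adult libraries, and adult replicates 6 and 7 held the highest values, 7.14 and 11.7 RPKM. Chd6 fell relative to the median gene, with changes of -1.55 ± 0.35 in P1 (limma adjusted p = 9.54e-04) and -1.21 ± 0.35 in P3 (limma adjusted p = 0.00512), while the deposited-scale changes were -0.10 and 0.34. Against adult replicates 1 to 4 alone it was short of the threshold (-0.98 and -0.64), and the P3 call ended without adult replicate 7 (-0.96). Chd1l, a poly-ADP-ribose-activated remodeler of DNA repair, was at -0.97 ± 0.21 in P1, not called, and fell, with a change of -1.26 ± 0.21 in P3 (limma adjusted p = 3.57e-05), against 0.28 on the deposited scale. Chd8, a negative regulator of β-catenin, was at 0.71 ± 0.19 in P1 and rose by 1.07 ± 0.19 in P3 (limma adjusted p = 7.36e-05), a call that ended without P3 replicate 4 (0.97) or adult replicate 4 (0.99). The Chd8 call also ended against adult replicates 5 to 7 alone (0.80). Smarca5, the ISWI ATPase, was not called, at 0.46 ± 0.22 in P1 and 0.88 ± 0.22 in P3.

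Methyltransferases write marks on histone H3 and on other proteins. In the class of KMT2 and other SET-domain proteins 2 of 14 rose and 2 fell in P1 and 7 rose and 1 fell in P3. Of all genes 13.7% were higher and 21.6% lower in P1, and 19.1% higher and 27.1% lower in P3. Setd1a, catalytic subunit of a COMPASS complex, had 18.6, 7.53, 10.8 and 7.52 RPKM in P1 libraries, 12.4, 21.2, 21.5 and 13.4 RPKM in P3 libraries and 0.395 to 1.66 RPKM (median 1.13) in adult libraries. It rose by 1.38 ± 0.24 in P1 (limma adjusted p = 8.88e-05) and 1.95 ± 0.24 in P3 (limma adjusted p = 1.37e-06), although 52.3% of its exon bases in GENCODE (chromosome 7, 127776670 to 127800122, plus strand) lie in other annotated genes. Setd5 had 13.5, 12.6, 16.1 and 13.8 RPKM in P1 libraries, 17.2, 20.5, 23.6 and 23.0 RPKM in P3 libraries and 0.759 to 2.72 RPKM (median 1.697) in adult libraries, with no overlap. Setd5 rose by 1.28 ± 0.17 in P1 (limma adjusted p = 3.89e-06) and 1.76 ± 0.17 in P3 (limma adjusted p = 5.63e-08).

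The KMT2 enzymes divide between promoters and enhancers. None was called in P1, where Kmt2a was at 0.38 ± 0.26, Kmt2b at 0.69 ± 0.17, Kmt2c at -0.31 ± 0.27, Kmt2d at 0.62 ± 0.22 and Kmt2e at 0.56 ± 0.22. In P3 Kmt2a rose by 1.05 ± 0.26, Kmt2b by 1.07 ± 0.17, Kmt2d by 1.15 ± 0.22 and Kmt2e by 1.05 ± 0.22 (limma adjusted p = 0.00168, 1.93e-05, 1.31e-04 and 4.27e-04). Kmt2c, the partner of Kmt2d at enhancers, was not called (-0.05 ± 0.27). Kmt2d had 3.11, 4.45, 5.94 and 4.64 RPKM in P1 libraries, 4.53, 8.09, 8.42 and 8.18 RPKM in P3 libraries and 0.287 to 1.36 RPKM (median 0.729) in adult libraries, and P3 replicate 1 was the lowest of its group. Against adult replicates 5 to 7 alone none of the 4 P3 calls held, with values of 0.72, 0.81, 0.91 and 0.69 in the same order. The Kmt2a call also ended without adult replicate 2 (0.99), adult replicate 4 (0.90) or P3 replicate 3 (0.91). That of Kmt2e ended without adult replicate 2 (0.94) or 4 (0.97) or P3 replicate 3 (0.96) or 4 (0.94).

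Setd3, which methylates a histidine of actin, was among the highest members in adult cells. It had 24.2, 23.04, 19.8 and 25.9 RPKM in P1 libraries, 27.6, 25.9, 27.3 and 25.6 RPKM in P3 libraries and 14.4 to 23.7 RPKM (median 18.1) in adult libraries. Relative to the median gene it fell, with a change of -1.09 ± 0.13 in P1 (limma adjusted p = 1.62e-06) and was at -0.99 ± 0.13 in P3, just short of the threshold, whereas on the deposited scale it was at 0.36 and 0.56. The P1 call ended under quantile normalization (-0.86). Setdb2 had 0.724, 0.883, 1.27 and 1.43 RPKM in P1 libraries, 1.82, 2.11, 2.16 and 3.93 RPKM in P3 libraries and 0.374 to 3.29 RPKM (median 0.469) in adult libraries, and adult replicates 6 and 7 were the highest adults. It fell in P1, with a change of -1.21 ± 0.33 (limma adjusted p = 0.00391), and was at -0.40 ± 0.33 in P3. The P1 call of Setdb2 ended without adult replicate 7 (-0.98) and against adult replicates 1 to 4 alone (-0.88). It also ended under quantile normalization (-0.77) and under median-of-ratios scaling (-0.72). On the deposited scale the P1 change was 0.24. Setd6, a methyltransferase of non-histone proteins, was at -0.39 ± 0.19 in P1 and fell, with a change of -1.31 ± 0.19 in P3 (limma adjusted p = 8.51e-06), with 0.23 on the deposited scale. Setd2, which marks the bodies of transcribed genes on lysine 36, was at 0.61 ± 0.20 in P1 and rose by 1.09 ± 0.20 in P3 (limma adjusted p = 9.58e-05), a call that ended against adult replicates 5 to 7 alone (0.80) and without P3 replicate 3, where the change was just under the threshold. The remaining members were not called, among them Setdb1, a writer of the silencing lysine 9 mark (0.68 ± 0.15 in P1 and 0.73 ± 0.15 in P3), Setd1b (-0.03 ± 0.18 and 0.21 ± 0.18) and Setd7 (-0.13 ± 0.26 and -0.57 ± 0.26).

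CBX proteins read methylated histones, as HP1 proteins at heterochromatin (Cbx1, Cbx3 and Cbx5) or as part of Polycomb (among them Cbx2, Cbx6, Cbx7 and Cbx8). Of 8 listed 7 were tested, and 0 were called at either age by limma relative to the median gene. On that scale 13.7% of all genes were higher and 21.6% lower in P1, and 19.1% and 27.1% in P3. An unadjusted p under 0.05 was reached by 3 of the 7 in P1 and 5 in P3, where 81 and 90 of all 119 members tested reached it. The share of all genes that did was not counted. As deposited, 5 of the 7 were called higher in P1 and 6 in P3, where 62.7% of all genes were at each age. Cbx3 was the highest, with 46.6, 37.5, 43.05 and 38.5 RPKM in P1 libraries, 44.6, 32.9, 33.5 and 49.3 RPKM in P3 libraries and 10.5 to 18.6 RPKM (median 12.95) in adult libraries. Its changes relative to the median gene were 0.18 ± 0.17 in P1 and 0.03 ± 0.17 in P3. Cbx1 was at 0.29 ± 0.15 and 0.76 ± 0.15, and Cbx5 at -0.16 ± 0.17 and -0.46 ± 0.17, in P1 and P3 in that order. For Polycomb members the changes in P1 and P3 were -0.58 ± 0.20 and -0.24 ± 0.20 for Cbx2, 0.64 ± 0.24 and 0.86 ± 0.24 for Cbx6, and -0.66 ± 0.19 and -0.71 ± 0.19 for Cbx8. Cbx7 did not reach the filter and was not tested. It had 0.427, 0.459, 0.3696 and 0.399 RPKM in P1 libraries, 0.509, 0.511, 0.287 and 1.11 RPKM in P3 libraries and 0.600 to 1.43 RPKM (median 0.946) in adult libraries, so that the P1 libraries all lay below all adult ones as deposited.

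Demethylases gave 4 rises and 2 falls among 19 members at each age. Of all genes tested 13.7% rose and 21.6% fell in P1, and 19.1% rose and 27.1% fell in P3. Kdm5 enzymes remove the lysine 4 mark. Kdm5b had 11.1, 8.91, 8.26 and 7.46 RPKM in P1 libraries, 9.73, 12.4, 12.3 and 8.33 RPKM in P3 libraries and 0.286 to 1.09 RPKM (median 0.791) in adult libraries, and rose by 1.49 ± 0.15 in P1 (limma adjusted p = 3.43e-07) and 1.63 ± 0.15 in P3 (limma adjusted p = 5.24e-08). The X-linked Kdm5c had 11.2, 14.8, 14.1 and 12.4 RPKM in P1 libraries, 12.8, 13.8, 15.1 and 13.6 RPKM in P3 libraries and 0.614 to 2.11 RPKM (median 1.26) in adult libraries. It rose by 1.54 ± 0.17 in P1 (limma adjusted p = 8.74e-07) and 1.53 ± 0.17 in P3 (limma adjusted p = 4.74e-07). Its Y-linked homolog Kdm5d had 1.37, 0.555, 2.61 and 1.77 RPKM in P1 libraries, 1.57, 1.93, 1.79 and 2.14 RPKM in P3 libraries and 0.757 to 2.31 RPKM (median 1.14) in adult libraries, groups that overlapped as deposited. Kdm5d fell relative to the median gene, with changes of -1.30 ± 0.26 in P1 (limma adjusted p = 2.69e-04) and -1.12 ± 0.26 in P3 (limma adjusted p = 8.03e-04), against 0.15 and 0.43 on the deposited scale, and both calls ended under median-of-ratios scaling (-0.96 and -0.79). The P3 call of Kdm5d also ended under quantile normalization (-0.81) and against adult replicates 1 to 4 alone (-0.98). Another Y-linked demethylase gene, Uty, was called lower at both ages as well (-1.66 and -1.69), and the sex of the animals is not given in the sources used here. How any reads that match both Kdm5c and Kdm5d were divided is not given in the sources used here either, so each one's share of such reads is uncertain. Kdm5a was not called, at 0.35 ± 0.24 and 0.60 ± 0.24.

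Kdm1a (LSD1), the highest per length of the 19 demethylase members and an eraser within the CoREST complex, had 25.7, 23.3, 26.5 and 22.8 RPKM in P1 libraries, 31.98, 32.6, 28.3 and 24.4 RPKM in P3 libraries and 2.76 to 5.08 RPKM (median 3.66) in adult libraries. It rose by 1.10 ± 0.12 in P1 (limma adjusted p = 7.36e-07) and 1.26 ± 0.12 in P3 (limma adjusted p = 7.97e-08). Its relative Kdm1b (LSD2) had 2.25, 1.92, 2.802 and 1.95 RPKM in P1 libraries, 2.55, 1.81, 1.72 and 2.46 RPKM in P3 libraries and 0.998 to 1.89 RPKM (median 1.63) in adult libraries. Kdm1b fell relative to the median gene, with changes of -1.004 ± 0.19 in P1 (limma adjusted p = 2.05e-04) and -1.15 ± 0.19 in P3 (limma adjusted p = 3.64e-05), against 0.45 and 0.39 on the deposited scale. The P1 call ended without any 1 of adult replicates 1, 2, 3 and 7 and P1 replicates 2 and 4, at -0.93 without adult replicate 3, and both calls ended under quantile normalization (-0.94 and -0.92). Both Kdm1b calls also ended under median-of-ratios scaling (-0.77 and -0.88), and the P1 call against adult replicates 5 to 7 alone (-0.94). The lysine 9 demethylase Kdm3a, known to be induced by low oxygen, rose by 1.10 ± 0.16 in P1 (limma adjusted p = 1.46e-05) and 1.37 ± 0.16 in P3 (limma adjusted p = 7.23e-07), the P1 call ending against adult replicates 5 to 7 alone (0.99). The lysine 27 demethylases Kdm6a and Kdm6b, which oppose Ezh2, were not called, at 0.61 ± 0.24 and 0.79 ± 0.20 in P1 and 0.66 ± 0.24 and 0.86 ± 0.20 in P3. Their ratio overlapped between groups, at 0.790 to 1.35 in P1, 0.764 to 1.55 in P3 and 0.426 to 2.63 in adult libraries (exact permutation p = 0.530 for P1 and 0.491 for P3 against adult).

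Among the other PHD-finger and ARID genes 4 of 10 tested rose in P1 with 0 falls, and 5 rose and 1 fell in P3. All genes had 13.7% higher and 21.6% lower in P1, and 19.1% higher and 27.1% lower in P3. The largest rise of any member was that of Arid5b, a DNA-binding protein that recruits the demethylase Phf2. Arid5b had 19.03, 16.2, 22.9 and 16.4 RPKM in P1 libraries, 19.1, 36.1, 38.5 and 19.4 RPKM in P3 libraries and 0.321 to 1.54 RPKM (median 0.649) in adult libraries. The lowest neonatal library was far above the highest adult one. Its change was 2.49 ± 0.22 in P1 (limma adjusted p = 8.29e-08) and 2.93 ± 0.22 in P3 (limma adjusted p = 5.76e-09), and it rested on 768 to 1153 recovered reads in P1, 896 to 2081 in P3 and 16 to 119 in adult libraries. Phf13, a reader of the lysine 4 mark, had 13.4, 7.399, 6.95 and 4.003 RPKM in P1 libraries, 10.7, 12.9, 14.8 and 7.796 RPKM in P3 libraries and 0.231 to 0.917 RPKM (median 0.716) in adult libraries. It rose by 1.40 ± 0.24 in P1 (limma adjusted p = 6.75e-05) and 1.90 ± 0.24 in P3 (limma adjusted p = 1.50e-06). Phf23 (1.18 ± 0.25 in P1 and 1.51 ± 0.25 in P3) and Phf3 (1.07 ± 0.26 and 1.46 ± 0.26) rose at both ages and Phf6 in P3 (1.07 ± 0.21), while Phf7 fell in P3 (-1.13 ± 0.22), with limma adjusted p = 3.31e-05, 7.92e-05, 2.37e-04 and 1.61e-04 in P3. On the deposited scale the P3 change of Phf7 was 0.42, and its call ended without P3 replicate 2 (-0.98). The Phf7 call also ended under quantile normalization (-0.67) and under median-of-ratios scaling (-0.70). Without P1 replicate 1 the P1 calls of Phf23 (0.89) and Phf3 (0.97) ended, that of Phf3 also without P1 replicate 3 (0.97) or adult replicate 4 (0.94), and that of Phf6 in P3 without P3 replicate 3 (0.98) or 4 (0.98) or adult replicate 6 (0.99). The P1 call of Phf3 also ended against adult replicates 5 to 7 alone (0.69). That of Phf6 in P3 ended against adult replicates 1 to 4 alone (0.88). The splicing factor Phf5a was the highest of the remaining PHD-finger and ARID genes in P1 and was not called, at 0.95 ± 0.22 in P1 and 0.76 ± 0.22 in P3. Arid3b did not reach the filter, with 0.452, 0.776, 1.18 and 0.937 RPKM in P1 libraries, 0.834, 1.17, 0.745 and 0.901 RPKM in P3 libraries and 0.143 to 0.314 RPKM (median 0.246) in adult libraries.

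Few members were called between P3 and P1. For the change relative to the median gene limma called 1 member higher in P3, where 1.18% of all genes were, and 1 lower, where 7.54% of all genes were. An unadjusted p under 0.05 was reached by 28 of 119 members, and an adjusted limma p under 0.05 at any size by 8, which besides Hdac7 and Smarcd3 were Setd6 (-0.92 ± 0.21), Phf2 (0.65 ± 0.17), Hdac6 (-0.86 ± 0.24), Chd7 (0.77 ± 0.22), Sin3a (0.61 ± 0.18) and Smarcd2 (0.97 ± 0.32). For these counts at p alone the share over all genes was not counted, on this scale or as deposited. The members' median change was 0.23, against -0.01 over all genes, and 75.6% of members had a positive change, against 49.3% of all genes. On the deposited scale limma called 0 members higher (22 had an unadjusted p under 0.05 and a positive change), where 1.4% of all genes were higher, and 1 was called lower, where 5.31% of all genes were.

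Smarcd3 (BAF60c), the SWI/SNF subunit of the cardiac form of the complex, was the member called lower. It had 26.4, 11.4, 6.07 and 6.84 RPKM in P3 libraries and 19.1, 58.8, 37.6 and 36.04 RPKM in P1 libraries, beside 6.87 to 17.1 RPKM (median 9.47) in adult libraries. P3 replicate 1 stood above the other P3 libraries and P1 replicate 1 below the other P1 libraries, so the neonatal ages overlapped. Smarcd3 was lower in P3 than in P1, with a change of -1.77 ± 0.37 (limma adjusted p = 0.00771; exact permutation p = 0.0571, where 0.0286 is the smallest that 4 against 4 allow). The cardiomyocyte marker sum was 5268, 1227, 736 and 666 RPKM in P3 replicates 1 to 4 and 5146, 10275, 8439.9 and 12265 RPKM in P1 replicates 1 to 4. Within P3 replicate 1 was highest and within P1 replicate 1 lowest in both. The highest of P1 was replicate 2 in Smarcd3 and replicate 4 in the marker sum. Adult libraries had the highest sums, 15865 to 29367 RPKM, with Smarcd3 below every P1 library. The part of cardiomyocyte content in the result was not tested. Smyd1, a muscle methyltransferase outside the family names, was also called lower in P3 than in P1 (-2.69). Against adult Smarcd3 was at 0.29 ± 0.33 in P1, not called, and -1.48 ± 0.33 in P3 (limma adjusted p = 6.15e-04), with 0.06 on the deposited scale. In GENCODE 48.2% of its exon bases (chromosome 5, 24590818 to 24624411, minus strand) overlap Chpf2 on the other strand, and since the strand of counting is not given in the sources used here the share of each is uncertain.

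Hdac7 was the member called higher in P3. It had 18.9, 21.8, 20.9 and 33.1 RPKM in P3 libraries and 10.9, 7.67, 7.19 and 15.6 RPKM in P1 libraries, beside 0.509 to 3.63 RPKM (median 0.636) in adult libraries. All P3 libraries were above all P1 libraries. The change was 1.09 ± 0.36 (limma adjusted p = 0.0465; exact permutation p = 0.0286). It was not called on the deposited scale (1.19), under quantile normalization (1.19), under median-of-ratios scaling (1.08), or without any 1 of 8 libraries, which were P1 replicates 2 (0.98) and 3 (0.94), P3 replicates 2 (1.12), 3 (1.13) and 4 (0.92), and adult replicates 2, 3 and 5, which enter only through the shared spread. Under both scalings and on the deposited scale the size of the change stayed above 1 and the adjusted p was over the threshold. The endothelial marker sum was 670.1, 836, 1176 and 1607 RPKM in P3 replicates 1 to 4 and 406, 245, 198 and 469 RPKM in P1 replicates 1 to 4. P3 replicate 4 was the highest of its group in both, as was P1 replicate 4, and the part of this in the result was not tested.

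**Figure D4:**
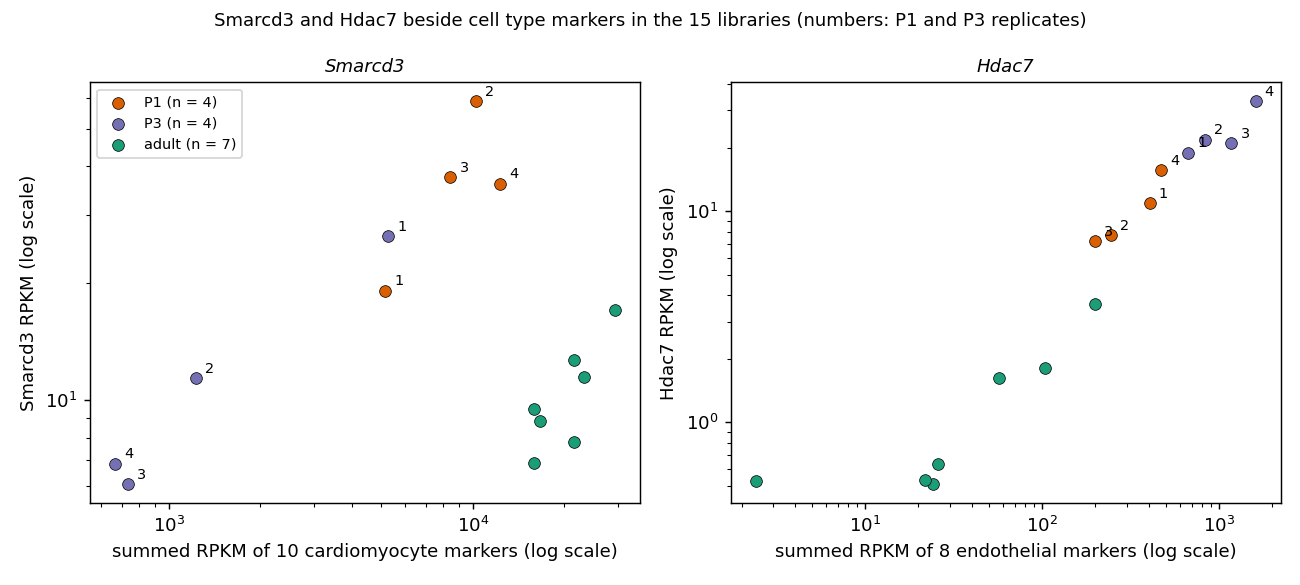
Smarcd3 RPKM against the summed RPKM of 10 cardiomyocyte markers (left) and Hdac7 RPKM against the summed RPKM of 8 endothelial markers (right) in the 15 libraries, on log axes, with P1 and P3 replicates numbered. P3 replicates 3 and 4 are lowest in both Smarcd3 and cardiomyocyte markers among the neonatal libraries, and P3 replicate 4 is highest in both Hdac7 and endothelial markers. Adult libraries have the highest cardiomyocyte marker sums, with Smarcd3 below every P1 library.

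Other chromatin genes that the family names do not cover were read from 8 lists of textbook partners, 152 names of which 131 were listed and 130 tested. Relative to the median gene 20 rose and 8 fell in P1 against adult, where 13.7% of all genes were higher and 21.6% lower, and 37 rose and 15 fell in P3, where 19.1% of all genes were higher and 27.1% lower. As deposited, 107 were higher and 0 lower by limma in P1, and 104 higher and 2 lower in P3, so most falls in these lists hold only relative to the median gene. Polycomb partners gave 3 rises and 0 falls of 20 in P1 and 5 rises and 1 fall in P3, among them Rnf2, the ubiquitin ligase of the second Polycomb complex (1.58 in P1 and 1.41 in P3), and Ring1, its paralog, which fell in P3 relative to the median gene (-1.28) and was at 0.27 on the deposited scale. SWI/SNF partners gave 0 rises and 1 fall of 8 in P1 and 2 rises and 1 fall in P3. NuRD and corepressor partners gave 4 rises and 1 fall of 18 in P1 and 5 rises and 4 falls in P3, with the NuRD subunits Mta2 (1.24 in P1 and 1.80 in P3) and Gatad2a (1.49 and 1.70) higher at both ages. ISWI, INO80 and SRCAP genes gave 3 rises of 15 in P1 and 6 in P3 with 0 falls, led by Baz1a (1.82 and 2.73).

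Among the 28 other histone methyltransferases tested 4 rose and 2 fell in P1 and 6 rose and 5 fell in P3. Prmt1, the main arginine methyltransferase, rose at both ages (1.74 and 1.32), and the muscle-restricted Smyd1 fell at both (-1.96 and -4.65, with -0.51 and -3.10 on the deposited scale). Of 19 other acetyltransferases and readers 0 rose and 1 fell in P1 and 3 rose and 1 fell in P3, the rises including Ep300 (1.13) and Crebbp (1.28). Histone chaperones and DNA methylation partners gave 5 rises and 1 fall of 13 in P1 and 7 rises and 0 falls in P3. Both subunits of the FACT chaperone, Supt16 (1.38 and 1.67) and Ssrp1 (1.35 and 1.69), were among them. Of 9 other demethylases 1 rose and 2 fell in P1 and 3 rose and 3 fell in P3.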

How the data were processed

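The authors deposited 1 table of RPKM values per gene and library from total RNA, and each library's lowest value lay just above 0.1 RPKM. HISAT2, Partek 6.6 and mm10 are named in the submitters' processing notes; annotation, counting options and strand were not stated there or in the labels. Genes with at least 1 RPKM in at least 4 of 15 libraries (9389) were tested with limma 3.58.1 in R 4.3.3, with a variance trend over all groups, on log2(RPKM + 0.5) less each library's median. This log scale understates changes of low genes. Calls needed an adjusted p under 0.05 and a log2 change of at least 1. Single values and ratios had exact two-sided permutation tests in Python 3.11.15. Read numbers were estimated from steps shared by RPKM values: 8057 genes (83.4%) came out as whole reads within a relative tolerance of 3e-05. The limma fit was tested on simulated data with planted changes. No library duplicated another (highest Spearman correlation 0.98).

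The members and lists were chosen with earlier results of these data known. The genes named are the 8 largest called rises and falls per comparison, the paralog sets, the highest gene of each role class and the 2 members that did not reach the filter; others named were chosen after their values were seen. Gene positions are from GENCODE (GRCm38) and promoters from RefSeq. Some members are counted among all genes but are not reported here by name.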

Additional observations from a re-analysis of the deposited data

Results flagged for a closer look

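Of 210 sets of libraries examined, each a member in P1, P3 or adult, 13 held a library far from the rest of its group, judged on the level relative to the library's median gene; chance gives about 1 in 20. Lowest and highest refer to that relative level, and the RPKM of the library is given. Adult replicate 4 was the lowest adult in Cbx5 (2.464 RPKM), Kat2b (10.02 RPKM) and Kdm5a (0.6391 RPKM) and the highest in Smarcd2 (4.72 RPKM). Adult replicate 2 was the highest adult in Hdac8 (0.3201 RPKM). P3 replicate 1 was the lowest P3 library in Brd3 (6.913 RPKM), Kmt2d (4.534 RPKM) and Tet3 (6.046 RPKM). P1 replicate 1 was the highest P1 library in Hdac1 (35.38 RPKM) and Cbx1 (14.93 RPKM). P1 replicate 2 was the lowest in Kmt2a (3.179 RPKM), and P1 replicate 3 was the lowest in Cbx8 (0.9595 RPKM) and the highest in Kdm5a (8.585 RPKM).

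By the test of the difference itself, the effects at P3 and P1 differed by a log2 change of at least 1 for 2 members. They were Smarcd3 (-1.77 ± 0.37 on the log2 scale, limma adjusted p = 0.00771) and Hdac7 (1.09 ± 0.36, limma adjusted p = 0.0465). At any size 8 members, these 2 included, had an adjusted limma p under 0.05, and the share of all genes that did was not counted.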

How the results depend on the processing

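On the deposited scale 17 of the 80 calls over the 3 comparisons took the opposite sign: in P1 Brd7 (0.45), Ezh1 (0.17), Hdac9 (0.16), Kdm1b (0.45), Kdm5d (0.15), Setd3 (0.36) and Setdb2 (0.24), and in P3 Brd7 (0.35), Chd1l (0.28), Chd6 (0.34), Hdac5 (0.20), Kdm1b (0.39), Kdm5d (0.43), Phf7 (0.42), Setd6 (0.23), Smarca2 (0.39) and Smarcd3 (0.063). That scale leaves in the shift of the median gene. The count of members higher in P1 against adult, 20 as reported, was 92 on the deposited scale, 66 with equal RPKM sums and 9 where every library had to reach 1 RPKM, which left 53 members tested. The count lower in P1, 11 as reported, was 1 on the deposited scale, 1 with equal sums, 6 under quantile normalization, 7 under median-of-ratios scaling and 4 under the stricter filter. In P3 against adult, 34 higher as reported, it was 96 on the deposited scale, 82 with equal sums, 22 with a pseudocount of 1 and 15 under the stricter filter. The count lower in P3, 13 as reported, was 1, 2, 8 and 5 on the deposited scale, with equal sums, under quantile normalization and under the stricter filter. In P3 against P1 the 1 member higher became 0 with a pseudocount of 0.1, on the deposited scale, under quantile normalization, under median-of-ratios scaling and under the stricter filter, and 2 with equal sums or without the 3 libraries that stood apart. The 1 member lower became 2 with a pseudocount of 0.1 and 3 without those 3 libraries. That setting, chosen after seeing the data, ended the calls of Brd7 (-0.89), Ezh2 (0.81), Phf23 (0.97) and Phf3 (0.84) in P1 and Eed (0.92) in P3.

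Leaving out 1 library at a time gave 17 to 22 members higher and 8 to 12 lower in P1, 26 to 39 higher and 11 to 15 lower in P3, and 0 to 2 higher and 1 to 2 lower in P3 against P1. In the last comparison 0 were higher without P1 replicate 2 or 3, P3 replicate 2, 3 or 4, or adult replicate 2, 3 or 5, and 2 without P1 replicate 1 or P3 replicate 1. With a replicate block the counts were 21 higher and 9 lower in P1, 37 and 11 in P3, and 1 and 1 in P3 against P1, and 8 of the 65 calls of genes named by rule ended. Deviations from the group mean were correlated between same-numbered libraries of different ages. Of 12 correlations 3 were over 0.1, with a range of -0.506 to 0.371. Differently numbered libraries were not compared, so these values cannot decide whether the numbers pair samples. Apart from the alternatives given above the cause of each difference was not tested. Depth limits the low members, 9 of which had under 10 recovered reads in at least 1 library.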
